A study of Mus musculus with 6 samples.

Results

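Of 45 genes of the cell cycle and of DNA replication, 41 were measured on 6 arrays from mice given fecal exosomes of lean mice (L-Exo) or of obese mice (H-Exo). The genes were chosen by name, as genes known to be made for S phase, for mitosis or for the passage between them, and each was read through the platform's gene symbol from the probe set with the highest mean over the 6 arrays. The choice was made with earlier results of these data known. All 41 had 1 probe set. They are 41 of 19505 named genes on 22206 probe sets. Mcm7, Ccnb1, Ccnd1 and Foxm1, the other 4 of the list, were not analysed here because no probe set carried their symbol. In limma none of the 41 reached an adjusted p under 0.05 for H-Exo against L-Exo, and neither did any other probe set of the array.

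Recipients of both groups were C57BL/6J mice, in the methods male and 8 to 12 weeks old, fed HFD (60% fat), and given 14 daily oral doses of 2000000000 exosomes over 14 days. L-Exo came from feces of donors on a regular chow diet and H-Exo from feces of donors on HFD for 12 months, with pellets of 10 mice pooled. Each group had 3 arrays, numbered 1 to 3. Neither the labels nor the methods say whether the 3 samples of a group were 3 mice, so a p-value here reflects the spread among these arrays alone, which may be technical. As both groups ate HFD and no array without exosomes was analysed here, the comparison sets one exosome preparation against the other and neither against untreated tissue.

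The samples are labelled liver. Of 12 measured hepatocyte markers, 2 lay above the background on all 6 arrays and 9 on none, where the background is the 95th percentile of the array's negative control probes (7.97 to 8.41 on the log2 scale). Of 12 enterocyte markers, 11 lay above it on all 6, as did all 6 Paneth cell and all 6 goblet cell markers measured. The values below are therefore not described as liver expression. The arrays had medians between 5.52 and 5.56 and 22.3% to 26.7% of their probe sets above background. L-Exo 1 and H-Exo 1 stood apart, with a mean correlation with the other arrays of 0.951 and 0.963 against 0.971 to 0.975. In a bulk sample, fewer cells in cycle and less of these RNAs per cell cannot be told apart.

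A cell that enters S phase loads the ring-shaped MCM helicase onto its replication origins, makes deoxynucleotides and copies its DNA behind the sliding clamp PCNA. Many genes for these steps are held silent in resting cells by E2F transcription factors with retinoblastoma proteins, and released in late G1. Genes for mitosis, such as those for cyclin B, the kinases PLK1 and Aurora, the spindle motors and the checkpoint proteins, are made later. Their promoters often pair CHR elements, on which the DREAM complex represses and B-MYB with FOXM1 activates, with CCAAT boxes bound by NF-Y. In the intestine, dividing cells lie mostly in the crypts, and in lymphoid tissue in germinal centres.

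Promoter sequences show how the S phase and mitosis genes differ at their start sites. RefSeq windows on GRCm38.p6, from 250 bases before to 50 bases after the start site, were at hand for 36 of the 45 genes and for 27025 genes in all. They were searched on both strands for TTTCCCGC, TTTCGCGC, TTTGCCGC or TTTGGCGC as E2F letters, for TTTGAA or TTCGAA as CHR letters, and for CCAAT. E2F letters were in the windows of 6 of 13 S phase genes (46.2%), 1 of 17 mitosis genes (5.88%) and 2.32% of all genes. CHR letters were in those of 2 S phase genes (15.4%), 13 mitosis genes (76.5%) and 19.4% of all genes. All 13 mitosis genes with CHR letters also held CCAAT, a pair found in 7.7% of all genes. A match is a run of letters and was not tested as a binding site.

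**Figure D1:**
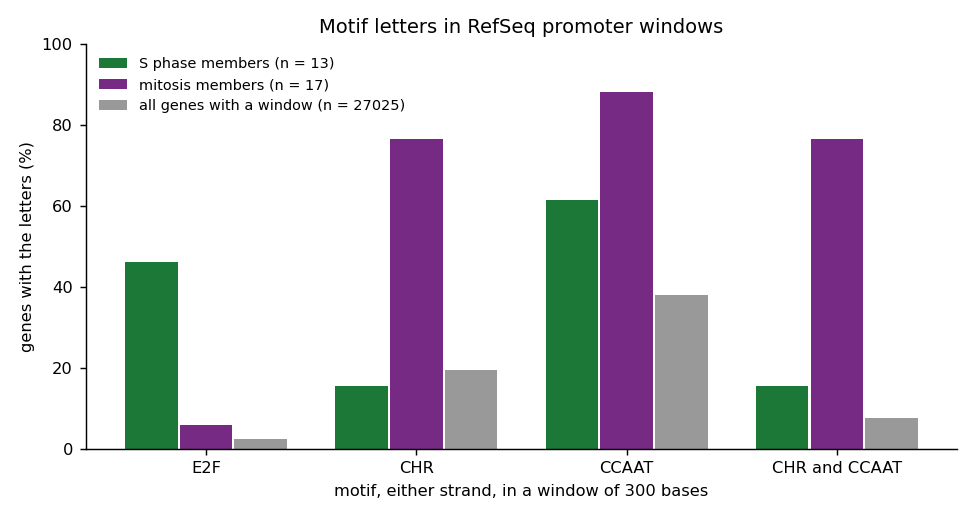
Share of genes (%) whose promoter window of 300 bases holds E2F letters, CHR letters, CCAAT, or CHR letters with CCAAT, on either strand, for S phase members (green, n = 13), mitosis members (purple, n = 17) and all genes with a window (grey, n = 27025). E2F letters were in 46.2% of the S phase windows and CHR letters in 76.5% of the mitosis windows.

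The windows below are shown for the 2 S phase genes with overlapping E2F letters and separate groups on the arrays (Mcm6 and Mcm5), for Cdc6, whose difference lay the other way, for Cdk1, the mitosis gene with both kinds of letters, for the mitosis genes Cdc20 and Kif11, and for Mki67. Each runs 5′ to 3′ on the gene's own strand and ends before the start site, and capitals mark the letters searched for (E2F, CHR and CCAAT, or their reverse complements). In Mcm6 (chr1:128359706-128359830, minus strand) and Mcm5 (chr8:75109341-75109506, plus strand) the first run of capitals is a pair of E2F matches, 1 on each strand, that overlap. Cdc6 lies at chr11:98907998-98908035 (plus strand), Cdk1 at chr10:69352913-69353135 (minus strand) and Cdc20 at chr4:118437344-118437411 (minus strand). Kif11 lies at chr19:37376322-37376381 (plus strand) and Mki67 at chr7:135716457-135716582 (minus strand).
Mcm6: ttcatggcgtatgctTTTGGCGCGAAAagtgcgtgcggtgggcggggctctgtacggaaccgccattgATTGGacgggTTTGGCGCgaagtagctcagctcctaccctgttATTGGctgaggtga
Mcm5: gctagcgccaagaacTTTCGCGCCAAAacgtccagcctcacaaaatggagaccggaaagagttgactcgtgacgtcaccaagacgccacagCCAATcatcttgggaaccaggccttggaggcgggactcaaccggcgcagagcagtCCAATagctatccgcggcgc
Cdc6: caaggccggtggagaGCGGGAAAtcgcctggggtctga
Cdk1: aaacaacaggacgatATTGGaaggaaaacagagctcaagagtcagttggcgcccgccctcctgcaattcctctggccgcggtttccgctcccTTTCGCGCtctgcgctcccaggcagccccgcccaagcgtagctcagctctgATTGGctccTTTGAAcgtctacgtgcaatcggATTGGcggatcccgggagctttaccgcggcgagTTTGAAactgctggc
Cdc20: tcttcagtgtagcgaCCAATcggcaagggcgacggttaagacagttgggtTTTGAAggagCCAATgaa
Kif11: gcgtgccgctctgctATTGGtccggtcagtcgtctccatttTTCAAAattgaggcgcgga
Mki67: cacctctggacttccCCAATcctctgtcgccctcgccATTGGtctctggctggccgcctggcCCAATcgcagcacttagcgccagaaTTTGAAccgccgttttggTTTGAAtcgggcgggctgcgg

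As a group, the members lay lower in H-Exo. Of the 41, 34 had a lower mean in H-Exo and 7 a higher one, where 51.1% of all 22206 probe sets had a lower mean. Their median difference, H-Exo minus L-Exo on the log2 scale, was -0.35, against -0.0097 over all probe sets. Between arrays of a group, the members' median deviation from each gene's own mean had an SD of 0.175. That SD is not the error of the median difference, and no test over the list was run. None of the 41 had an adjusted p under 0.05 in limma, as none of all probe sets did (0%), and the members' adjusted p ran from 0.988 to 0.998. At an unadjusted p under 0.05 there were 5 members lower in H-Exo, where 1.74% of all probe sets were, and 0 members higher, where 2.32% were. The groups did not overlap for 9 members, all lower in H-Exo, where 4.71% of all probe sets were separate and lower and 4.9% separate and higher. For such a member the exact permutation test over arrays gave a two-sided p of 0.1, the smallest that 3 arrays against 3 allow. The 9 were Mcm5, Mcm6, Cdt1, Pcna, Rrm1, Tyms, Tpx2, Cenpe and Ccna2.

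Signal was low for many of them. On all 6 arrays 10 of the 41 lay above background, where 18.6% of all probe sets did, 21 lay above it on none and 10 on some. The 17 members with a mean above background had a median difference of -0.52, 16 of them lower in H-Exo, and the 24 dimmer members one of -0.29, 18 of them lower. The standard errors of the members ran from 0.28 to 0.74 with a median of 0.37, so that most single differences were of the size of their errors. Without the H-Exo 3 array 29 members were lower, and 37 without H-Exo 1. Leaving out L-Exo 1 and H-Exo 1 together, which was decided once the data had been seen, gave 37 lower members and a median of -0.48.

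**Figure D2:**
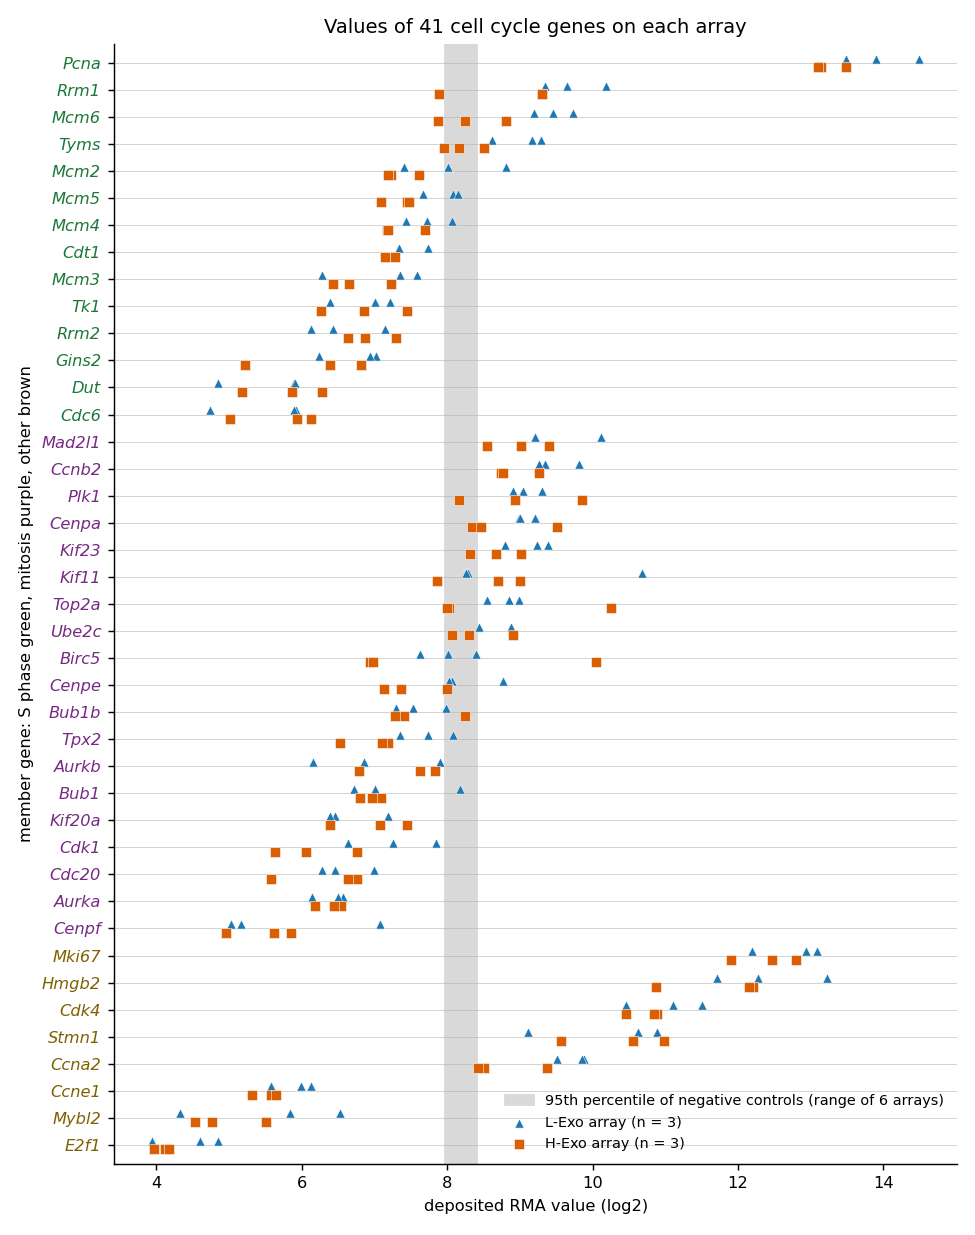
Deposited values (log2, x axis) of the 41 measured members on each array, with S phase genes in green, mitosis genes in purple and other members in brown on the y axis. Blue triangles are L-Exo arrays and orange squares H-Exo arrays (n = 3 each), and the grey band is the background level over the 6 arrays, 7.97 to 8.41. Pcna, Mki67, Hmgb2 and Cdk4 lie far above the band, and 21 members lie below their array's level on every array.

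Among the S phase genes, 11 of 14 had a lower mean in H-Exo and their median difference was -0.49. The helicase subunit Mcm6 had the largest difference of all members and the smallest p. It was at 9.73, 9.45 and 9.19 in L-Exo and at 8.81, 8.25 and 7.87 in H-Exo. Every L-Exo array was above every H-Exo array, and the lowest value, on H-Exo 3, was the only one of the 6 below background. The means were 9.45 ± 0.27 (SD, n = 3) and 8.31 ± 0.47 (SD, n = 3), a 2.21-fold lower level in H-Exo (log2 difference -1.15, standard error 0.34, unadjusted p = 0.00752, limma adjusted p = 0.988). This fold includes the H-Exo 3 value, which has no fixed scale below background. Without the H-Exo 3 array the difference was -0.93.

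The other subunits of the helicase were near or below background. Mcm5 was at 7.66, 8.08 and 8.15 in L-Exo and at 7.45, 7.48 and 7.09 in H-Exo (difference -0.62, standard error 0.30). Its groups were separate, but all 6 values lay under the background level. Mcm2 was at 7.41, 8.81 and 8.01 against 7.22, 7.61 and 7.18 (difference -0.74, standard error 0.39), above background on L-Exo 2 alone, and L-Exo 1 lay within the H-Exo values. Mcm4 and Mcm3, below background on all 6, differed by -0.39 (standard error 0.31) and by -0.30 (standard error 0.41), with groups that overlapped. For none of these dim subunits is a fold given, since below background a difference has no fixed scale.

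Cdt1 and Cdc6 bring the helicase to the origin. Cdt1 was at 7.33, 7.34 and 7.74 in L-Exo and at 7.22, 7.28 and 7.15 in H-Exo, separate groups with a gap that is small beside the standard error (difference -0.25, standard error 0.28). Cdc6 lay between 4.74 and 6.13 with overlapping groups, and its mean was higher in H-Exo (0.17, standard error 0.43). Gins2, part of the GINS complex that completes the active helicase, had a difference of -0.59 (standard error 0.44). All 3 were below background on every array.

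Pcna encodes the clamp that holds DNA polymerase on its template and lay well above background on all 6 arrays. It was at 14.49, 13.90 and 13.49 in L-Exo and at 13.14, 13.49 and 13.10 in H-Exo. The means were 13.96 ± 0.51 (SD, n = 3) and 13.24 ± 0.21 (SD, n = 3), a 1.64-fold lower level in H-Exo (log2 difference -0.72, standard error 0.34, limma adjusted p = 0.988). The groups were barely separate, since L-Exo 3 and H-Exo 2 share the value 13.49 after rounding. The L-Exo 1 value stood highest, and with L-Exo 1 and H-Exo 1 both left out the difference was -0.40.

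Enzymes that supply deoxynucleotides did not all lie on one side. Rrm1, the large subunit of ribonucleotide reductase, was at 10.18, 9.65 and 9.35 in L-Exo and at 9.30, 9.30 and 7.88 in H-Exo. Its level was 1.87-fold lower in H-Exo (log2 difference -0.90, standard error 0.44), with separate groups and with H-Exo 3 more than a unit under the rest. The H-Exo 3 value was below background, and without that array the Rrm1 difference was -0.43. Tyms, thymidylate synthase, was at 9.29, 8.61 and 9.16 against 7.96, 8.16 and 8.51, also separate, a 1.76-fold lower level in H-Exo (log2 difference -0.81, standard error 0.32, unadjusted p = 0.0299, limma adjusted p = 0.988). Its H-Exo 1 value was below background, so the folds of Rrm1 and Tyms each include a value with no fixed scale. Rrm2, the small subunit of the same reductase, had a higher mean in H-Exo (0.37, standard error 0.36), as did Dut, which removes dUTP (0.23, standard error 0.41). The difference of Tk1, thymidine kinase, was -0.02 (standard error 0.38). Rrm2, Dut and Tk1 lay below background on all 6 arrays with overlapping groups, so the contrast between the reductase subunits sets 1 bright probe set beside 1 dim one.

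Among the mitosis genes, 16 of 19 had a lower mean in H-Exo and the median difference was -0.29. Cdk1, the kinase that drives entry into mitosis, had the largest difference among them. It was at 7.84, 7.26 and 6.63 in L-Exo and at 6.76, 6.06 and 5.63 in H-Exo (difference -1.10, standard error 0.41, unadjusted p = 0.0257, limma adjusted p = 0.988). L-Exo 3 lay below H-Exo 1, so the groups overlapped, and all 6 values were below background. Its partner Ccnb2, cyclin B2, was above background on all 6 arrays, at 9.35, 9.26 and 9.81 against 8.74, 9.26 and 8.77 (difference -0.55, standard error 0.31). L-Exo 2 and H-Exo 2 were alike at 9.26 and the other L-Exo arrays were above the other H-Exo arrays.

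Of the mitotic kinases, Plk1, which acts on centrosomes, kinetochores and cytokinesis, was at 8.91, 9.30 and 9.04 in L-Exo and at 9.85, 8.93 and 8.16 in H-Exo. H-Exo thus held both its highest and its lowest value, and the difference was -0.10 (standard error 0.42). Aurka, the Aurora kinase of the spindle poles, differed by -0.01 (standard error 0.29) and Aurkb, that of the chromosomal passenger complex, by 0.45 (standard error 0.48), both below background throughout.

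Checkpoint genes, whose proteins hold the cell in metaphase until every chromosome is attached, gave small differences. Mad2l1, the checkpoint protein MAD2, was bright on all 6 arrays at 10.11, 9.21 and 9.20 against 9.40, 9.01 and 8.54 (difference -0.52, standard error 0.37), with overlapping groups, and without L-Exo 1 it differed by -0.22. The kinase Bub1 differed by -0.35 (standard error 0.40) and Bub1b, which encodes BUBR1, by 0.04 (standard error 0.36), and neither was above background on any array. Cdc20 and Ube2c act on the other side, as activator and ubiquitin-conjugating enzyme of the anaphase-promoting complex. Ube2c was at 8.43, 8.87 and 8.88 against 8.07, 8.91 and 8.30 (difference -0.30, standard error 0.33), above background on 4 arrays, with H-Exo 2 the highest of the 6. Cdc20 differed by -0.26 (standard error 0.39) and lay below background throughout.

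Motors and spindle proteins included both separate mitosis genes. Tpx2, which activates Aurora A on the spindle, was at 7.35, 8.08 and 7.73 in L-Exo and at 7.18, 6.53 and 7.10 in H-Exo (difference -0.78, standard error 0.33, unadjusted p = 0.0404, limma adjusted p = 0.988). The kinesin Cenpe, which moves chromosomes to the metaphase plate, was at 8.76, 8.06 and 8.02 against 7.13, 7.36 and 8.0 (difference -0.78, standard error 0.35). Tpx2 was below background on every array and Cenpe above it only on L-Exo 1, and L-Exo 3 and H-Exo 3 of Cenpe lay side by side. Kif23, a motor of cytokinesis, was above background on all 6 arrays, at 9.38, 9.24 and 8.79 against 8.67, 8.31 and 9.02 (difference -0.47, standard error 0.32), with H-Exo 3 within the L-Exo values.

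The bipolar spindle motor Kif11 was at 10.68, 8.29 and 8.26 in L-Exo and at 8.70, 9.0 and 7.86 in H-Exo (difference -0.55, standard error 0.63). Its negative sign came from L-Exo 1, and without that array the difference was 0.25. Kif20a, a kinesin of the midzone, had a higher mean in H-Exo (0.30, standard error 0.37) below background. Cenpf, a large kinetochore protein, was below background too and differed by -0.28 (standard error 0.54).

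A different array decided Birc5, Top2a and Cenpa. Birc5, the passenger complex protein survivin, was at 8.39, 8.01 and 7.63 in L-Exo and at 10.05, 6.93 and 6.98 in H-Exo. Top2a, the topoisomerase that untangles sister chromatids, was at 8.98, 8.54 and 8.85 against 10.25, 8.02 and 7.99. Cenpa, the histone H3 variant of centromeres, was at 9.21, 8.98 and 9.0 against 9.51, 8.34 and 8.47. In each of the 3 genes H-Exo 1 was the highest array of the 6, and the other H-Exo arrays lay below every L-Exo array. The differences were -0.02 (standard error 0.74), -0.04 (standard error 0.56) and -0.29 (standard error 0.36). Without H-Exo 1 they were -1.06 for Birc5, -0.79 for Top2a and -0.66 for Cenpa, and none of these passed the test.

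**Figure D3:**
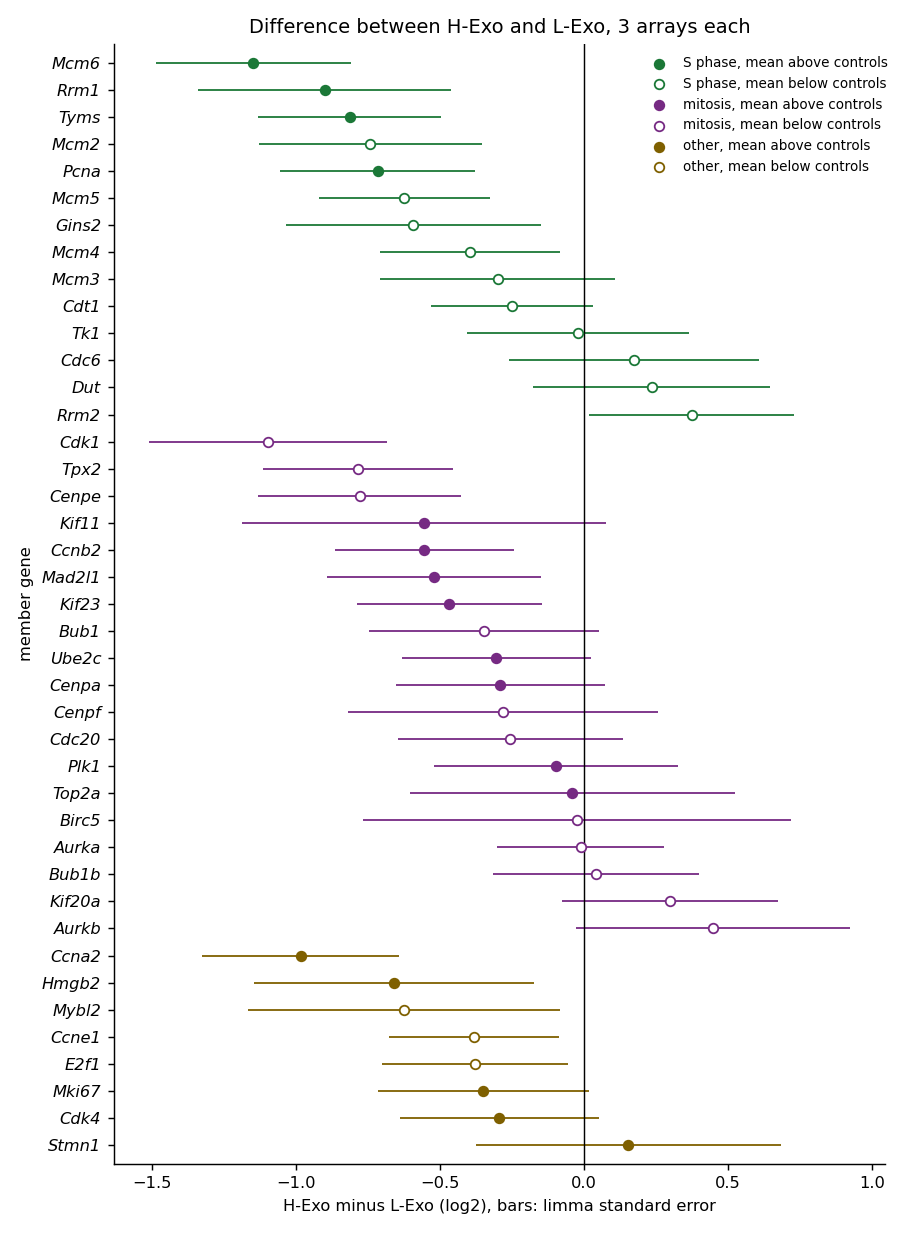
Difference between H-Exo and L-Exo (log2, x axis) of each of the 41 members (y axis), with the limma standard error as a bar, from 3 arrays per group. Filled points have a mean above background and open points one below it. Of the 41 points 34 lie left of 0, from Mcm6 at -1.15, and 7 lie right of it, up to Aurkb at 0.45.

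Of the members outside these classes, Ccna2 was separate. This cyclin A2, which works with CDK2 in S phase and with CDK1 before mitosis, was at 9.88, 9.85 and 9.51 in L-Exo and at 9.37, 8.51 and 8.42 in H-Exo. Its means were 9.75 ± 0.20 (SD, n = 3) and 8.76 ± 0.53 (SD, n = 3), a 1.98-fold lower level in H-Exo (log2 difference -0.98, standard error 0.34, unadjusted p = 0.0177, limma adjusted p = 0.988). All 6 arrays were above background, and of the separate members only Ccna2 and Pcna were above it on every array.

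The G1 kinase Cdk4 was at 10.46, 11.50 and 11.10 in L-Exo and at 10.88, 10.46 and 10.84 in H-Exo (difference -0.29, standard error 0.34), its lowest arrays were 1 of each group, and without L-Exo 2 the difference was -0.0554. Ccne1, cyclin E1, was at 5.57, 5.99 and 6.12 against 5.57, 5.65 and 5.31 (difference -0.38, standard error 0.30). E2f1, the transcription factor that opens S phase, differed by -0.38 (standard error 0.32) and Mybl2, which encodes B-MYB of the mitotic gene activators, by -0.62 (standard error 0.54). Ccne1, E2f1 and Mybl2 were below background on all arrays, and E2f1 lay among the lower values of the negative controls, of which 11.5% to 38.2% were below it.

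The proliferation markers lay above background on all 6 arrays. Mki67, the Ki-67 protein that coats chromosomes of cycling cells, was at 13.09, 12.94 and 12.19 in L-Exo and at 12.80, 12.47 and 11.90 in H-Exo (difference -0.35, standard error 0.37). Hmgb2, a chromatin protein abundant in dividing cells, was at 13.22, 12.27 and 11.71 against 12.20, 12.15 and 10.87 (difference -0.66, standard error 0.49). Both were highest on L-Exo 1 and lowest on H-Exo 3, with overlapping groups. Without L-Exo 1 the differences were -0.17 for Mki67 and -0.25 for Hmgb2, and without H-Exo 3 they were -0.10 and -0.22. Stmn1, a microtubule-destabilizing protein, was at 9.11, 10.89 and 10.63 against 10.98, 10.55 and 9.57, and its mean was higher in H-Exo (0.15, standard error 0.53).

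The gap between S phase and mitosis members depended on which genes and arrays were kept. The S phase median difference was lower than that of the mitosis members by 0.20 on the log2 scale, and the SD of this gap between arrays of a group was 0.258. It was therefore within that spread over all measured members. Without H-Exo 1 it nearly closed, to -0.02. With probe sets filtered at the negative controls it was -0.47, from 4 S phase and 8 mitosis genes. The spread of the gap over those fewer genes was not computed, so the SD of 0.258 is no measure for it. By array, the S phase genes had median deviations from their means of 0.08, 0.31 and 0.31 in L-Exo and of -0.16, -0.07 and -0.49 in H-Exo, so that the groups were separate. Those of the mitosis genes were 0.29, 0.17 and -0.05 in L-Exo and 0.15, -0.22 and -0.40 in H-Exo, and H-Exo 1 lay among the L-Exo arrays. H-Exo 1 was the highest array for 6 of 19 mitosis genes (31.6%) and for 3 of 14 S phase genes (21.4%). Over all named genes it was the highest for 18.8%. Of the mitosis genes, 7 were highest on L-Exo 1 (36.8%, against 26.6% of all named genes). H-Exo 1 was the lowest array for 4 of them (21.1%, against 18.8%).

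The lowest values came more often from H-Exo 3 than from any other array. H-Exo 3 was the lowest of the 6 for 19 of the 41 members (46.3%), among them 8 of 14 S phase genes, and the highest for 0 of them. Over all named genes it was the lowest for 14.8%. L-Exo 1 was the highest array for 16 members (39%), where it was the highest for 26.6% of all named genes.

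**Figure D4:**
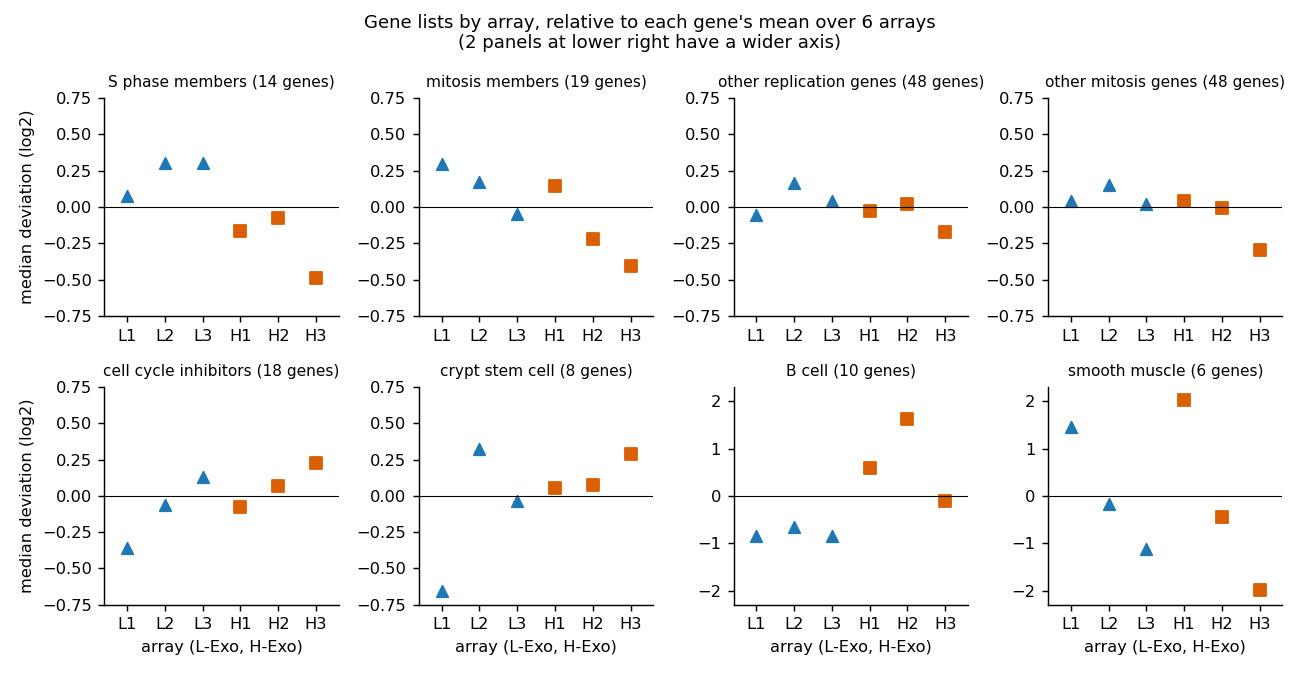
Median deviation of each gene list from its genes' means (log2, y axis) on each array (x axis), with L-Exo arrays as blue triangles and H-Exo arrays as orange squares. The S phase members have separate groups, H-Exo 3 is lowest in the members and in the other replication and mitosis genes, and the B cell and smooth muscle panels have a wider y axis.

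Median differences by promoter letters lay close together. The 6 measured genes with E2F letters had a median difference of -0.46, 5 of them lower in H-Exo, and the 16 with CHR letters and CCAAT one of -0.32, 15 of them lower. Cdk1 (-1.10), a mitosis gene with both kinds of letters, is counted in both classes. The rest of the E2F class were Mcm6 (-1.15), Mcm5 (-0.62), Mcm3 (-0.30), Cdt1 (-0.25) and Cdc6 (0.17). The 13 with neither E2F nor CHR letters had a median of -0.38, 11 of them lower. Mcm6 and Mcm5, with the overlapping E2F letters printed above, were shown partly because their groups were separate. Cdt1, with 1 E2F match, was separate too, and so were Pcna, Rrm1, Tyms and Cenpe, whose windows held no E2F letters. Cdc6, with E2F letters, had its difference on the other side of 0.

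Further genes of the same pathway, none of them a member, had medians of the same sign. With probe sets filtered at the negative controls these were -0.42 for the other replication genes and -0.61 for the other mitosis genes, beside -0.86 for the S phase and -0.39 for the mitosis members under that filter. Of 48 other replication genes measured, 33 were lower and 15 higher in H-Exo with a median difference of -0.18, 5 of them lower at an unadjusted p under 0.05 and 0 higher. Over all probe sets these shares were 1.74% and 2.32%. The groups were separate for 5 lower genes and for 3 higher ones, Lig1 (0.64), Wdhd1 (0.51) and Ung (0.32), which were below background. Over all probe sets 4.71% were separate and lower and 4.9% separate and higher. The 4 replication genes with the smallest p were Pola1 (-0.84), a subunit of DNA polymerase alpha, Clspn (-0.86), the replication checkpoint protein claspin, Chaf1b (-0.92), a histone chaperone, and Orc4 (-0.96), part of the origin recognition complex. Orc4 lay above background on all 6 arrays and the other 3 on none. Of 48 other mitosis genes, 29 were lower and 19 higher with a median of -0.25, and 7 had separate groups, all lower. At an unadjusted p under 0.05 in limma, 5 were lower and 0 higher. They were led by Racgap1 (-0.95), a partner of Kif23 in cytokinesis, Kif4 (-1.04) and Kif15 (-0.88), which are kinesins, and Nuf2 (-1.12), of the outer kinetochore, and only Racgap1 was above background on any array. Background was exceeded on no array by 29 of the replication and 37 of the mitosis genes.

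Upstream regulators had no common side. Of 20 G1 drivers and E2F family genes, 12 were lower and 8 higher with a median of -0.16, which turned to 0.04 without L-Exo 2 and to 0.16 with the filter at the negative controls. Cdc25a, a phosphatase that activates CDK2, was higher in H-Exo by 0.73, and Cdk2 lower by at least 1.29-fold, since it was above background on the L-Exo arrays alone. The other leading genes were E2f6 at -0.56 and E2f2 at -0.40, both below background. Of 18 measured cell cycle inhibitors, 12 were higher and 6 lower, with a median of 0.08 that was -0.0024 with array weights. Btg1 (1.13) and Btg2 (0.97), antiproliferative genes of quiescent cells, had separate groups with H-Exo higher. Cdkn1a, which encodes p21, differed by 0.67 (standard error 0.53) and Cdkn2d, which encodes p19INK4d, by -0.83 (standard error 0.49). None of these passed the test over all probe sets.

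For cell types that divide in the gut or in lymphoid tissue, the list medians lay on the other side of 0, with markers on both sides in 2 of the 3 lists. Of 8 crypt stem cell markers, 6 had a higher mean in H-Exo (median difference 0.27), led by Sox9 (1.10), with Znrf3 (0.51), Prom1 (0.50) and Cd44 (0.38). Ascl2 (-0.04) and Axin2 (-0.25) had a lower mean, and of the markers above background on all 6 arrays, Prom1 and Axin2, 1 lay on each side. On L-Exo arrays their median deviations ran from -0.65 to 0.32, a range that takes in the 0.05 to 0.29 of the H-Exo arrays. All 10 measured B cell markers had a higher mean in H-Exo (median difference 1.41), led by Ms4a1 (2.43), Cd79a (2.65), Cd22 (2.02) and H2-Aa (1.59). Of these, H2-Aa was above background on all 6 arrays, Cd79a on 2 and Ms4a1 and Cd22 on none, so that the sizes given for the last 3 have no fixed scale. By array their median deviations were -0.86 to -0.66 for L-Exo and 0.595, 1.63 and -0.11 for H-Exo 1 to 3. H-Exo 2 was the highest array for all 10, so the size of the median rests largely on that array. Of the 10, 6 were above background on no array. Of 7 germinal centre B cell markers, 4 were higher and 3 lower with a median of 0.50, Rgs13 (1.08), Bcl6 (0.83) and Gcsam (0.83) on one side and S1pr2 (-0.85), Mef2b (-0.38) and Mybl1 (-0.12) on the other, and 6 of them were above background on no array. The part of these cell types in the members' values was not tested.

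The remaining marker lists differed in side and size. Of 8 T cell markers 7 were higher (median 0.48, led by Cd3e at 1.13 and Cd3d at 1.33, with Cd3g at 0.63 and Cd8a at 0.75), and all 8 were below background on every array. Of 6 plasma cell markers 5 were higher (median 0.83, with Jchain at 2.02, Mzb1 at 1.44, Prdm1 at 1.06 and Sdc1 at -0.80). Mzb1 and Prdm1 were above background on no array, and the 3 markers with a mean above background had a median of 0.195. Of 6 macrophage markers 4 were higher and 2 lower (median 0.56, with C1qa at 1.16, Csf1r at 0.74, C1qb at 0.58 and Cd14 at 0.54). C1qa, Csf1r and Cd14 were above background on no array and C1qb on 1. The 1 macrophage marker with a mean above background was lower in H-Exo, at -0.22. Many epithelial markers lay within 0.5 of their array's highest value on at least 1 array and are taken as saturated, namely 5 of 12 enterocyte, 5 of 6 Paneth cell and 5 of 6 goblet cell markers. Near that ceiling a difference is compressed, so no median is given for these lists. Of the markers not saturated, Apoa4 (1.66), Gpa33 (0.49) and Lct (-0.27) were the leading enterocyte ones, and Mmp7 (-1.51) and Agr2 (-1.62) the only Paneth cell and goblet cell ones. Hepatocyte markers had a median of -0.73 over 12 genes, led by Alb, at least 1.81-fold lower in H-Exo, and by Cyp2e1 (-0.92), Fgg (-0.74) and Fgb (-0.95), which lay below background on all arrays. Alb was at 8.31, 8.26 and 10.72 in L-Exo. On L-Exo 1 and 2 it was just above their background of 8.19 and 8.16, so the bound rests mostly on L-Exo 3. Of the 2 hepatocyte markers above background on all 6 arrays, Hnf4a differed by 0.51 and Cps1 by -0.44.

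Smooth muscle markers varied within groups more than between them. Their median deviations were 1.45, -0.17 and -1.13 in L-Exo and 2.03, -0.45 and -1.98 in H-Exo, and their median difference was -0.17, with Tagln at -0.58, Acta2 at -0.22, Myh11 at 0.26 and Actg2 at -0.39, and 2 of the 6, Actg2 among them, were saturated. By median deviation H-Exo 1 was the highest array for these markers and H-Exo 3 the lowest, while L-Exo 1 and H-Exo 1 were each the highest for 3 of the 6. H-Exo 1 was also the highest array for 10 members, among them Birc5, Top2a, Plk1 and Cenpa, and L-Exo 1 for 16 members. H-Exo 3 was also the lowest for 19 members. Other values did not run alongside. On H-Exo 1 the median deviation of all members was 0.01, and that array was the lowest for 6 of them. On L-Exo 3, where the muscle markers were at -1.13, the members were at 0.10. Whether the amount of muscle in a sample has a part in the members' values was not tested.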

How the data were processed

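Expression was measured on Affymetrix arrays, 3 L-Exo and 3 H-Exo, which were grouped by their titles. RNA input was 100 ng per sample in the methods and 90 ng in the labels. The authors deposited 1 log2 value per probe set, made by RMA (background correction, normalization between arrays, summary over probes) in Transcriptome Analysis Console 4.0, and the sources used here name no genome build. Of 28846 rows, 5222 were negative controls and 1418 controls of other kinds, all left out, and 22206 probe sets were tested, of which 19572 carry 1 symbol in the platform annotation, 0 several and 2634 are unnamed here. RMA compresses differences of dim probe sets, and no probe set's level was compared with another's for abundance.

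The values were fitted with limma 3.58.1 (lmFit and eBayes, two-sided, H-Exo minus L-Exo, no covariate) in R 4.3.3, with Benjamini-Hochberg adjustment over all 22206 probe sets and a threshold of 0.05. The fit was tested on simulated data. Tables and figures were made in Python 3.11.15 with pandas 2.3.3, numpy 2.4.6 and matplotlib 3.10.9. The members and all gene lists were chosen with earlier results of these data known, so lists are described by counts and medians, with no test over a list. Members were named each with its difference. Array values were given for those above background on at least 1 array, for those with separate groups and for the 3 smallest p per class, and in each other list the 4 genes with the smallest p were named. Medians of other lists, by array, are medians of deviations from each gene's mean over 6 arrays. A group below background on all its arrays has only a bound, set as the higher of each array's background and the probe set's own value. Alternatives were trend and robust moderation, filters on dim probe sets, quantile normalization, centring on array medians, weights per array, a block for the replicate number, each array left out, the mean of a gene's probe sets, the methods' t-test and other background levels. The number of arrays limits the precision.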

Additional observations from a re-analysis of the deposited data

How the results depend on the processing

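Of 41 members, 25 kept the sign of their difference under every alternative run and 16 did not. No probe set passed in limma (515 higher and 386 lower at an unadjusted p under 0.05), 10 passed with array weights, 1 without both replicate 1 arrays (added after the data were seen), and 0 to 1 when single arrays were left out (1 each without L-Exo 1 and without H-Exo 3). The methods' t-test gave an unadjusted p under 0.05 to 921 probe sets and 4 members, and none passed once adjusted (0). With probe sets filtered at the negative controls, which left 17 members, 16 were lower in H-Exo, the S phase median was -0.86 and its gap to the mitosis median -0.47. Single arrays left out gave 29 to 37 members lower and no member past the threshold. They gave medians of -0.47 to -0.27 for all members, -0.63 to -0.37 for S phase and -0.47 to -0.18 for mitosis, a gap of -0.28 to -0.02, and 10 to 14 members above background. Above background on all arrays were 17 members at the 90th percentile of the negative controls, 1 at the 99th and 34 at the median.

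With array weights the differences turned sign for Tk1 (0.16), Dut (-0.0789), Aurkb (-0.0584), Kif11 (0.15), Kif20a (-0.17), Cenpf (0.41) and Stmn1 (-0.37). Without both replicate 1 arrays they did for Rrm2 (-0.0306), Dut (-0.37), Aurkb (-0.0674), Bub1 (0.0212), Bub1b (-0.0736), Kif11 (0.16), Kif20a (-0.0451), Cenpf (0.64) and Stmn1 (-0.70). The cause was not tested. Single arrays left out gave ranges across 0 for Cdc6 (-0.21 to 0.52), Tk1 (-0.32 to 0.27), Dut (-0.12 to 0.53), Plk1 (-0.53 to 0.31), Aurka (-0.14 to 0.0907), Bub1 (-0.64 to 0.091), Bub1b (-0.26 to 0.23), Cdc20 (-0.47 to 0.12), Kif11 (-0.96 to 0.25), Cenpf (-0.64 to 0.38), Birc5 (-1.06 to 0.51), Top2a (-0.79 to 0.34) and Stmn1 (-0.40 to 0.55).

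With the replicate number as a block, 0 probe sets and 0 members passed and the median stayed at -0.35. Correlations of deviations between same-numbered arrays were 0.219, 0.0429 and 0.182. Pairing needed over 0.1 for every pair, so the numbers were not used to pair samples. Arrays 1 and 3 correlated best with the array of their own number and arrays 2 did not, and whether samples of a number were handled together was not tested.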
